A study of Mus musculus with 19 samples.

Results

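The 10 genes described here encode receptors for bone morphogenetic proteins (BMPs), activins and TGF-beta: Bmpr1a, Bmpr1b, Acvr1, Acvr1b, Tgfbr1, Bmpr2, Acvr2a, Acvr2b, Tgfbr2 and Tgfbr3. They were chosen by name from the receptor family and are 10 of the 35596 genes in the data. RNA was sequenced from whole vomeronasal organs (VNOs) of female mice at postnatal day 21, in 18 libraries from 6 groups of 3. In the AP2eCre line the groups were AP2e WT, which by the study's design carried Smad4 flox/flox without Cre although their label reads wild type, AP2e Het (AP2eCre +/-) and AP2e cKO (AP2eCre +/- with Smad4 flox/flox). In the OMPCre line the groups were OMP WT (likewise Smad4 flox/flox), OMP Het (OMPCre +/-) and OMP cKO (OMPCre +/- with Smad4 flox/flox). WT and cKO mice therefore shared the floxed Smad4 alleles, Het and cKO mice shared the Cre allele, and no group lacked both. The sensory neurons of the organ are called VSNs. AP2eCre acts in those that are basal and still immature, OMPCre in those that have matured in the apical or the basal layer, while the RNA came from every cell of the organ. A further AP2e library, with a heterozygote's title and a knockout's genotype label, entered no comparison.

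Ligands of the TGF-beta superfamily assemble a complex of type I and type II receptors, which are serine/threonine kinases of the cell surface. The type II receptor phosphorylates the type I receptor, which in turn phosphorylates receptor-regulated SMAD proteins. BMP type I receptors act on SMAD1, SMAD5 and SMAD9, whereas activin and TGF-beta type I receptors act on SMAD2 and SMAD3. Both branches then use SMAD4 as their shared partner in the nucleus, so the receptors stand upstream of the gene that was deleted. In the olfactory system this signaling is known for roles in the genesis and maturation of sensory neurons.

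Each library held between 43385516 and 134042284 estimated counts in total. Smad4 itself ranged from 33.8 to 66.7 counts scaled to a total of 1000000 per library (CPM) in AP2e cKO and from 39.5 to 80.8 in AP2e WT, so these groups overlapped. It ranged from 54.6 to 62.4 in OMP cKO, below the lowest OMP WT library at 64.9. Its log2 fold change against the controls of its line was -0.09 (SE 0.30, adjusted p = 0.955 by edgeR) in AP2e cKO and -0.35 (SE 0.09, adjusted p = 0.909) in OMP cKO. Per the study, the LoxP sites flank a single exon of Smad4, whereas these counts cover the whole gene in all cells of the organ. They therefore do not measure the loss of that exon in the Cre-expressing cells. All 6 markers fixed for vomeronasal neurons were detected in every group, with a summed level of 949 to 1564 CPM, but so were all 6 fibroblast markers, at 16442 to 40457 CPM. In such whole-organ RNA, fewer cells of a type and less RNA per cell cannot be told apart. By the names of the animals, each group held 2 libraries named with a letter and 1 named after its mouse line.

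Sequences of a cassette exon and of promoters are shown because the transcript forms and levels described next refer to them. Tgfbr2, the type II receptor of TGF-beta, had a pair of abundant transcripts. They differ by a coding cassette exon of 75 bases, exon 2 of the longer transcript (ENSMUST00000061101.11), at chr9:116158271-116158345 on the minus strand of GRCm38. The exon adds 25 codons and no frame shift, and its letters are in capitals between the last 15 bases of the exon before it and the first 15 of the exon after it.
Tgfbr2 with exon 2: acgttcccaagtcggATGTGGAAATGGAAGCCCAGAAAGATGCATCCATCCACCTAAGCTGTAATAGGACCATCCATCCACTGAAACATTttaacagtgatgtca
Tgfbr2 without exon 2: acgttcccaagtcggttaacagtgatgtca

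RefSeq promoter windows of 300 bases (250 before and 50 after the transcription start, GRCm38.p6) matched 9 of the 10 members. For each of these the window nearest to the start of its leading transcript was used. The windows of Tgfbr2, the member with the highest level, and Acvr2b, the member with the lowest, are shown with SMAD-type motifs in capitals, namely CAGAC or its reverse complement GTCTG, and GGCGC or its reverse complement GCGCC.
Tgfbr2, chr9:116175314-116175613, minus strand: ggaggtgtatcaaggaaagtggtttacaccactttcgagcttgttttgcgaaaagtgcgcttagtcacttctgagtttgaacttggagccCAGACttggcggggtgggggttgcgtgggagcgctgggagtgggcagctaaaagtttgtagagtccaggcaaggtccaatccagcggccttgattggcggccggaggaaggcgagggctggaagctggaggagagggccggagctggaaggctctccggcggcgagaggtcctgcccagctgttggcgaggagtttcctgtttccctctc
Acvr2b, chr9:119401928-119402227, plus strand: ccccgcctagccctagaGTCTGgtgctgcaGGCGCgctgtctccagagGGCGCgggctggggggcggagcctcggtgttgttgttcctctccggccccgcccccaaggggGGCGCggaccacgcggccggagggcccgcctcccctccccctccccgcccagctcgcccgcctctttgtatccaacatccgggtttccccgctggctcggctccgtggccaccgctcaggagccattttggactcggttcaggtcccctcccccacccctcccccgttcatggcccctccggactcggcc

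Searched on both strands, CAGAC was present in 4 of the 9 member windows and in 49.6% of all 32851 windows. GGCGC was present in 7 of the 9 and in 36.9% of all windows, and no match of the pair overlapped. The member windows had a median GC content of 74.7% (range 48.3% to 83.7%) against 52.7% over all windows. In 8 of the 9, the ratio of observed to expected CpG was over 0.6, as in 35.8% of all windows. The exception was Bmpr1b, at 0.286. The Acvr1 window, which had the highest GC content, lay 50556 bases from the start of its leading transcript and is counted in these figures. The members had a single window per gene, whereas the set of all windows was not limited in this way. That set was not matched to the members for GC content either. A letter match describes the sequence only, and no binding was measured.

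To see how much of each receptor the organ expresses, levels were compared per transcript length, as TPM, the number of transcripts of a gene among 1000000 in the library. In the 12 controls Tgfbr2 had the highest level, at 30.9 ± 5.72 TPM (SD, n = 12). It was followed by Bmpr1a, a BMP type I receptor, at 23.5 ± 5.98 TPM, and Tgfbr1, the type I partner of Tgfbr2, at 18.8 ± 4.20 TPM. Bmpr2, the BMP type II receptor, stood at 14.1 ± 3.37 TPM. The activin type I receptor Acvr1b reached 11.8 ± 2.18 TPM and the BMP type I receptor Acvr1 9.55 ± 1.86 TPM. Tgfbr3, or betaglycan, a co-receptor that presents TGF-beta and has no kinase, was at 6.62 ± 1.43 TPM. The activin type II receptor Acvr2a was at 5.51 ± 1.54 TPM. Bmpr1b, a further BMP type I receptor, stood at 2.42 ± 0.551 TPM and Acvr2b, a further activin type II receptor, at 1.36 ± 0.478 TPM.

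Each neighbour in this order was above the next beyond the spread between libraries (two-sided exact sign-flip permutation test within libraries, adjusted p at most 0.0039 over 9 pairs). The closest pair was Bmpr2 over Acvr1b, with a ratio of 1.18 and the same direction in 11 of 12 libraries. With the 6 WT libraries alone, Acvr1b over Acvr1 (exact adjusted p = 0.094) and Tgfbr3 over Acvr2a (exact adjusted p = 0.07) no longer passed. Tgfbr2, Bmpr1a and Tgfbr1 held the first 3 ranks in all 18 libraries. Bmpr1b and Acvr2b held the last 2 ranks in every library. Within the BMP type I class Bmpr1a was thus above Bmpr1b in every library, and among activin type II receptors Acvr2a was above Acvr2b. Among genes with at least 1 TPM, Tgfbr2 lay at percentile 78.3, Acvr1b at 53.6 and Acvr2b at 4.18.

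**Figure D1:**
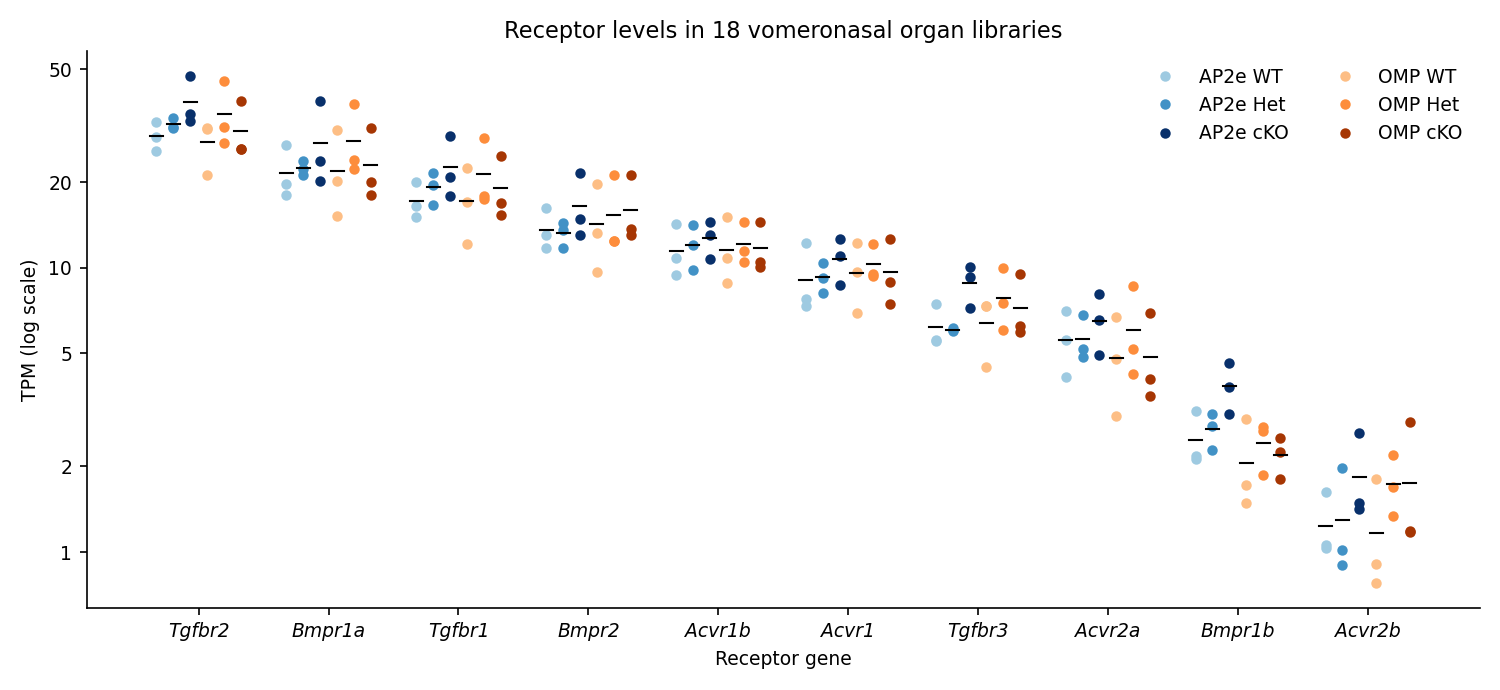
TPM of the 10 receptor genes (log axis) in each of the 18 libraries, ordered by their mean in the 12 controls. Points are libraries coloured by group and bars are group means of 3. Tgfbr2 was highest in every library and Bmpr1b and Acvr2b took the last 2 places.

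The 10 receptors together held 83.9 to 188 TPM per library. Of that sum, BMP type I receptors made up 27.9% ± 1.47 (SD, n = 3) in AP2e cKO and 28.0% ± 1.13 (n = 6) in its controls. Activin and TGF-beta type I receptors made up 23.7% ± 0.577 and 24.8% ± 1.21, and BMP and activin type II receptors 16.6% ± 0.524 and 16.8% ± 1.30. Tgfbr2 made up 25.8% ± 1.28 in AP2e cKO and 25.4% ± 1.31 in controls. In OMP cKO these 4 shares were 27.7%, 24.5%, 17.8% and 24.3%, against 28.9%, 24.3%, 16.7% and 24.5% in the OMP controls. Tgfbr3, the co-receptor, made up 6.05% ± 1.15 in AP2e cKO and 5.07% ± 0.358 in controls (exact permutation p = 0.048, adjusted over 10 share tests 0.48), and 5.75% against 5.58% in OMP. No class share and no summed TPM of a class passed the exact permutation test after adjustment. The lowest adjusted p was 0.14, for the summed TPM of Tgfbr2 and of Tgfbr3 in AP2e cKO (both exact p = 0.024). Rescaled by the library factors of the count model (TMM), those values were 0.86 and 0.29.

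**Figure D2:**
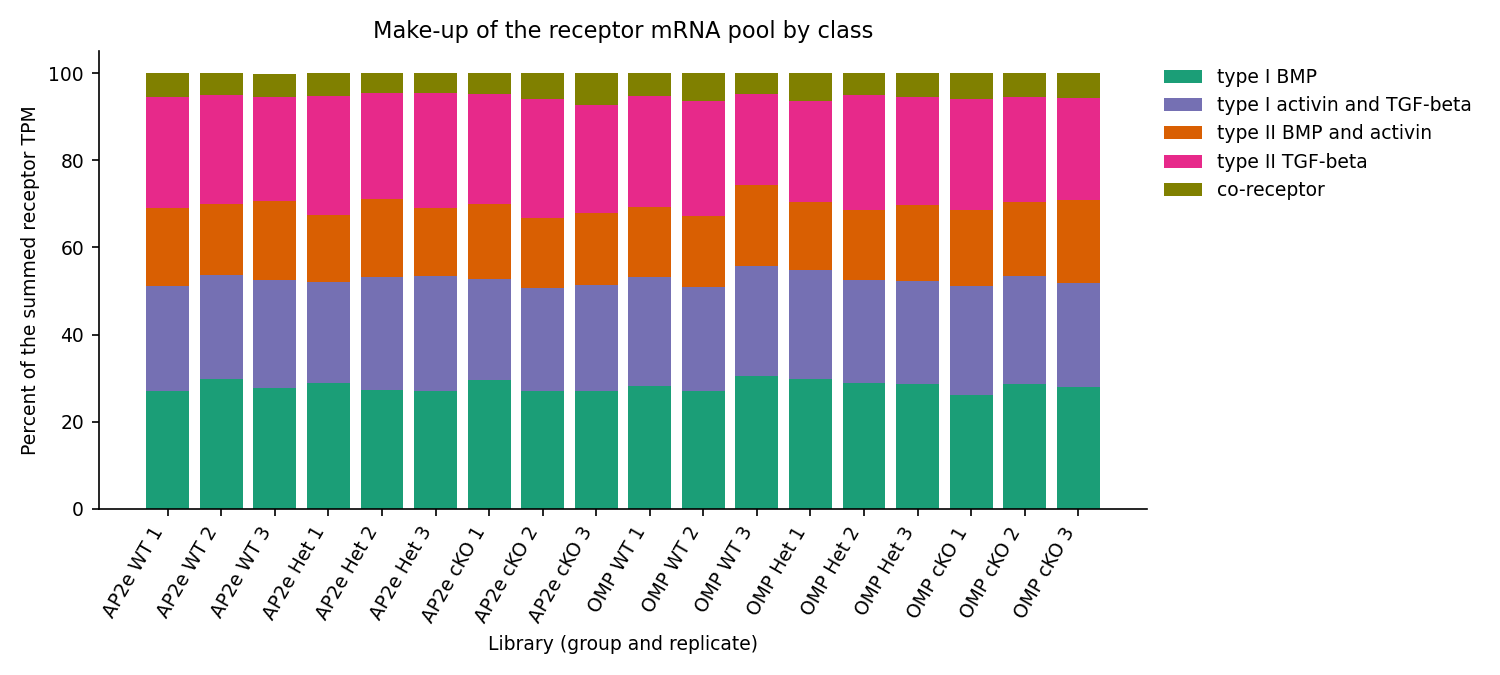
Percent of the summed TPM of the 10 receptors that belonged to each receptor class (stacked bars adding up to 100%) in the 18 libraries, labelled by group and replicate. The share of the BMP type I class lay between 26.2% and 30.5% in all libraries.

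The main question for these genes was whether the loss of Smad4 in VSNs went with a change in receptor mRNA. No receptor passed the test in either line. In AP2e cKO against its 6 controls, 0 of the 10 members were called by edgeR's quasi-likelihood test (adjusted p under 0.05 over 18495 genes), where 0.0378% of all genes were called, and 0 had an unadjusted p under 0.05, where 10.2% of all genes had. In OMP cKO, 0 of 10 were called, where 0% of 18623 genes were called, and 0 had an unadjusted p under 0.05, where 3.95% of all genes had. The CPM of cKO and control libraries overlapped for all 10 members, where the groups of 5.05% of all genes in AP2e and 2.36% in OMP did not overlap. Nor was the difference between the effects of the lines called for any member (0 of 10, where 0.00514% of all genes were called), and 0 had an unadjusted p under 0.05 for it, where 5.05% of all genes had. DESeq2 also gave 0 members called in each line, where 1.67% of all genes were called in AP2e cKO and 0.231% in OMP cKO. With it 0 members had an unadjusted p under 0.05, where 11.6% and 4.71% of all genes had. The median absolute log2 fold change of the members was 0.03 in AP2e cKO and 0.02 in OMP cKO, against 0.14 and 0.10 over all genes tested. The members had 166 to 26458 estimated counts per library, and the comparison with all genes was not matched for counts.

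Because a missed threshold does not show equality, the 95% confidence intervals of the folds are given. For the 9 members other than Acvr2b, the intervals lay between 0.792-fold and 1.24-fold in AP2e cKO, and between 0.772-fold and 1.29-fold in OMP cKO. With both lines averaged in a single fit (6 cKO and 12 controls), they lay between 0.824-fold and 1.16-fold. These intervals hold for counts summed per gene. With counts made from length-scaled TPM, Tgfbr3 in AP2e cKO had a log2 fold change of 0.26 (SE 0.12, edgeR adjusted p = 0.591), above the top of its interval at 0.20, and Bmpr1b had 0.29 (SE 0.13, adjusted p = 0.599). For Acvr2b, the least abundant member, the intervals were wider, from 0.85 to 1.68 in AP2e cKO and from 0.717 to 1.43 in OMP cKO. The level in the Cre-expressing cells alone was not measured.

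**Figure D3:**
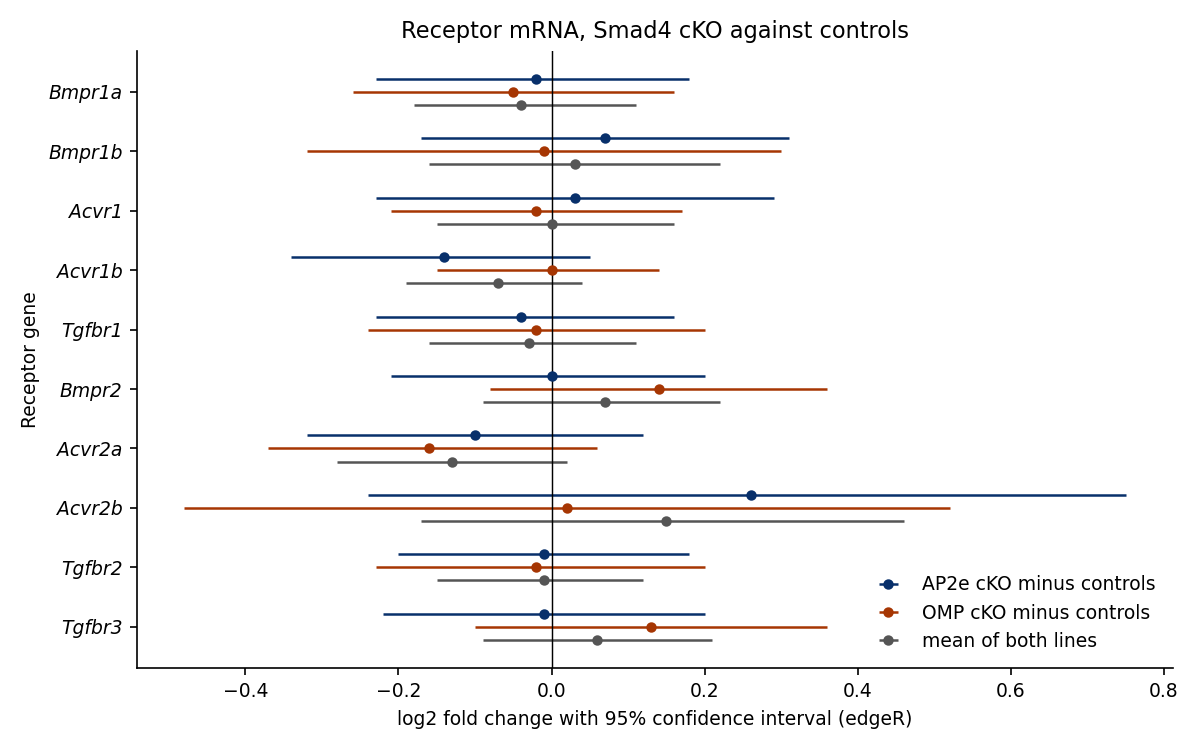
log2 fold change of each receptor (points) with its 95% confidence interval (lines) from edgeR, in AP2e cKO and OMP cKO against the controls of the same line and averaged over both lines. Every interval includes 0, and those of Acvr2b are the widest.

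Among BMP type I receptors, Bmpr1a was at 168, 134 and 140 CPM in the 3 AP2e cKO libraries and at 137 to 169 CPM in the controls, with a median of 147. The OMP cKO libraries were at 139, 149 and 165 CPM, with controls at 140 to 181 and a median of 151. The cKO libraries lay within or next to the range of the controls in each line, and the log2 fold changes were -0.02 (SE 0.09) and -0.05 (SE 0.09). Acvr1 lay at 29.6, 27.2 and 31.7 CPM in AP2e cKO and at 21.9 to 32.1 CPM in controls, with a median of 29.4. In the OMP cKO libraries Acvr1 lay at 27.0, 31.4 and 28.2 CPM against 27.0 to 33.1 CPM, again with no separation.

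Bmpr1b was at 16.8, 17.5 and 13.8 CPM in AP2e cKO and at 13.3 to 17.4 CPM in controls, with a median of 15.4. Its OMP cKO values were 12.0, 12.9 and 13.0 CPM, with controls at 10.9 to 16.3 and a median of 12.1. Its group means were 14.5, 16.1 and 16.1 CPM in AP2e WT, Het and cKO, and 12.0, 13.4 and 12.6 CPM in OMP WT, Het and cKO. No contrast between the lines was tested. As TPM rescaled by TMM factors, Bmpr1b had 3.55 ± 0.605 in AP2e cKO (n = 3) and 2.68 ± 0.301 in its controls (n = 6). Bmpr1b was the 1 member with an unadjusted p under 0.05 over the 6 groups by edgeR, but its adjusted p was 0.454. In that test 10.5% of all genes had an unadjusted p under 0.05 and 0.765% were called.

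Of the activin and TGF-beta type I receptors, Acvr1b was at 53.4, 53.1 and 58.8 CPM in AP2e cKO and at 56.4 to 70.2 CPM in its controls, with a median of 59.0. Both lowest values of the line were cKO libraries and the third lay inside the control range, with a log2 fold change of -0.14 (95% interval -0.34 to 0.05, edgeR adjusted p = 0.635). The OMP cKO libraries had 58.9, 56.3 and 61.0 CPM, inside the control range of 55.7 to 63.0. The effects of the lines differed by -0.14 on the log2 scale (SE 0.11, edgeR adjusted p = 1). Tgfbr1 was at 132, 105 and 111 CPM in AP2e cKO (controls 112 to 133, median 116) and at 107, 113 and 129 CPM in OMP cKO (controls 101 to 140, median 116). Its values overlapped in each line, with log2 fold changes of -0.04 and -0.02.

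Of the type II receptors, Acvr2a showed the lowest p of any member for the mean of both lines. It was at 35.5, 28.3 and 29.0 CPM in AP2e cKO and at 28.9 to 36.3 CPM in controls, with a median of 33.7. It was at 29.7, 25.7 and 30.3 CPM in OMP cKO and at 26.4 to 35.1 CPM in controls, with a median of 32.8. The AP2e cKO library at 35.5 CPM was above 5 of its 6 controls, 1 cKO library in each line was below all of its controls, and the groups overlapped in both lines. The mean log2 fold change of -0.13 (SE 0.07, 95% interval -0.28 to 0.02) did not pass (edgeR adjusted p = 0.62). For this mean 0 members were called and 0 had an unadjusted p under 0.05, where 0.205% of 19465 genes were called and 9.29% had an unadjusted p under 0.05.

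Bmpr2 was at 241, 189 and 204 CPM in AP2e cKO and at 196 to 236 CPM in controls, with a median of 209. In OMP cKO Bmpr2 was at 221, 230 and 268 CPM, and in the OMP controls at 197 to 248 CPM with a median of 210. Its log2 fold change was -0.00 (SE 0.09) in the AP2eCre line and 0.14 (95% interval -0.08 to 0.36) in the OMPCre line, and the difference of -0.15 (SE 0.14) between the lines was not called. Acvr2b was at 6.47, 4.66 and 4.36 CPM in AP2e cKO (controls 3.34 to 5.96, median 4.09) and at 4.40, 4.59 and 5.92 CPM in OMP cKO (controls 3.41 to 6.33, median 5.02). A single AP2e cKO library was above all controls, and the log2 fold change of 0.26 (SE 0.22) had the largest size and the largest error of any member in that line.

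Tgfbr2 was at 203, 183 and 176 CPM in AP2e cKO and at 173 to 211 CPM in controls, with a median of 185. In OMP cKO Tgfbr2 was at 170, 171 and 192 CPM, against 148 to 201 CPM and a median of 182. The cKO values were inside the control ranges, and the log2 fold changes were -0.01 (SE 0.09) and -0.02 (SE 0.10). Tgfbr3 was at 48.0, 39.1 and 41.7 CPM in AP2e cKO (controls 38.6 to 48.5) and at 44.6, 46.2 and 54.7 CPM in OMP cKO (controls 40.9 to 54.1). Its log2 fold change was -0.01 in AP2e cKO and 0.13 (95% interval -0.10 to 0.36) in OMP cKO. In TPM, by contrast, Tgfbr3 rescaled by TMM factors averaged 8.23 ± 1.30 (SD, n = 3) in AP2e cKO and 6.34 ± 0.434 (n = 6) in controls. A short transcript of 687 bases took up to 36.0% of the TPM of Tgfbr3 in a library and 0% in the median library. The leading transcript held 100%, 76.6% and 62.4% of TPM in the AP2e cKO libraries against 81.4% to 100% in controls. Of the counts it held 97.6% ± 2.45 in AP2e cKO and 99.6% ± 0.779 in controls. The part of these shares in the TPM of Tgfbr3 was not tested.

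The Cre alleles were compared with Smad4 flox/flox alone within each line. Of the 10 members 0 were called by edgeR in AP2e Het (0.0224% of 17827 genes called) or in OMP Het (0.0441% of 18124 genes), and 0 had an unadjusted p under 0.05 in either, where 5.18% and 5.54% of all genes had. In each line 8 of the 10 members had a higher estimate in Het, with a median log2 fold change of 0.09 in AP2e and 0.12 in OMP, against 0.01 and -0.00 over all genes, of which 51.6% and 49.1% had a higher estimate. The fibroblast markers had higher estimates in Het for 6 of 6 genes in both lines, with a median log2 fold change of 0.10 in AP2e and 0.36 in OMP, and those of bone and cartilage for 4 of 6 (0.07) and 5 of 6 (0.44). Other marker lists moved as well. Immune markers were higher in Het for 5 of 6 genes in AP2e (0.22) and 2 of 6 in OMP (-0.14). Skeletal muscle markers were lower in OMP Het for 6 of 6 genes (-3.58), with OMP WT libraries spread from 3.48 to 174 CPM. None of these markers was called, and their part in the receptor estimates was not tested. The largest estimate of a member was for Acvr2b in OMP Het, at 6.33, 5.02 and 5.93 CPM against 3.69, 3.41 and 5.02 CPM in OMP WT. That was 0.51 on the log2 scale (SE 0.22, edgeR adjusted p = 0.876). Tgfbr1 was at 119, 116 and 140 CPM in OMP Het and at 101, 116 and 115 CPM in OMP WT. Before rounding these did not overlap, the only such case among the members, where 11.6% of all genes in that comparison did not overlap. In AP2e Het 0 members were separated from AP2e WT in this way, where 9.85% of all genes were. The exact permutation p was 0.1, the smallest that 3 against 3 allow.

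Since a receptor's form can change without its level, the leading transcript of each member was also followed. Acvr1b has a single annotated transcript. In Bmpr1a, Bmpr2, Tgfbr1, Acvr2a, Acvr2b, Bmpr1b and Tgfbr3 the leading transcript held a median of 86.8% to 99.8% of the gene's TPM. In Acvr1 it held 72.1%, with a further 18.8% in another coding transcript. Tgfbr2 was the most evenly divided, with a median of 64.1% of TPM in the transcript without exon 2 (3476 bases) and 35.9% in the one with it (8092 bases). The longer one also carries 6085 bases of 3′ UTR against 1449 in the shorter, so most of the bases that differ lie in the UTR and not in the exon printed above. The deposited estimates do not say which reads decided the split.

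The Tgfbr2 transcript without exon 2 held 64.7%, 68.7% and 68.3% of TPM in the AP2e cKO libraries, and 61.2% to 65.6% in the 6 controls. That is 67.2% ± 2.21 (SD, n = 3) against 63.3% ± 1.52 (n = 6), and 2 of the 3 cKO libraries were above all controls. In OMP cKO it held 66.0%, 63.5% and 63.8%, against 62.7% to 67.4% in controls. The leading transcript of Bmpr1b (ENSMUST00000029948.14) held 68.6%, 64.4% and 61.2% in AP2e cKO and 72.6% to 96.0% in controls, with no overlap. Of the 9 members with several transcripts it was the 1 without overlap in AP2e, where the leading transcripts of 1.76% of 14757 genes (several transcripts and at least 10 counts in 3 libraries) did not overlap. In OMP cKO 0 of the 9 were separated in this way, where 1.16% of 14669 genes were. In the other line the OMP cKO libraries had 94.6%, 75.1% and 100%, against 71.8% to 100% in controls. The exact permutation p in AP2e cKO was 0.024 for Tgfbr2 and 0.012 for Bmpr1b, the smallest that 3 against 6 allow, but over 18 tests each had an adjusted p of 0.22. The leading transcript of Tgfbr1 held 90.1%, 86.2% and 85.2% in AP2e cKO against 87.2% to 96.5% in controls (exact permutation p = 0.048, adjusted 0.29). For the Tgfbr3 shares given above, the exact permutation p was 0.083 (adjusted 0.3). As a share of counts rather than TPM, the Bmpr1b transcript had 81.4% ± 5.74 against 91.1% ± 7.69 (exact p = 0.12). Tested singly by edgeR, 0 of the 24 member transcripts in AP2e cKO were called, and neither was any of the 58883 transcripts tested. In OMP cKO 0 of 23 member transcripts and 2 of 59367 transcripts were called. There the Acvr1 transcript ENSMUST00000090935.8 had 0 counts in all 3 cKO libraries, against 146.4, 134.1 and 26.2 in OMP WT and 0, 7.0 and 34.6 in OMP Het (edgeR adjusted p = 1).

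**Figure D4:**
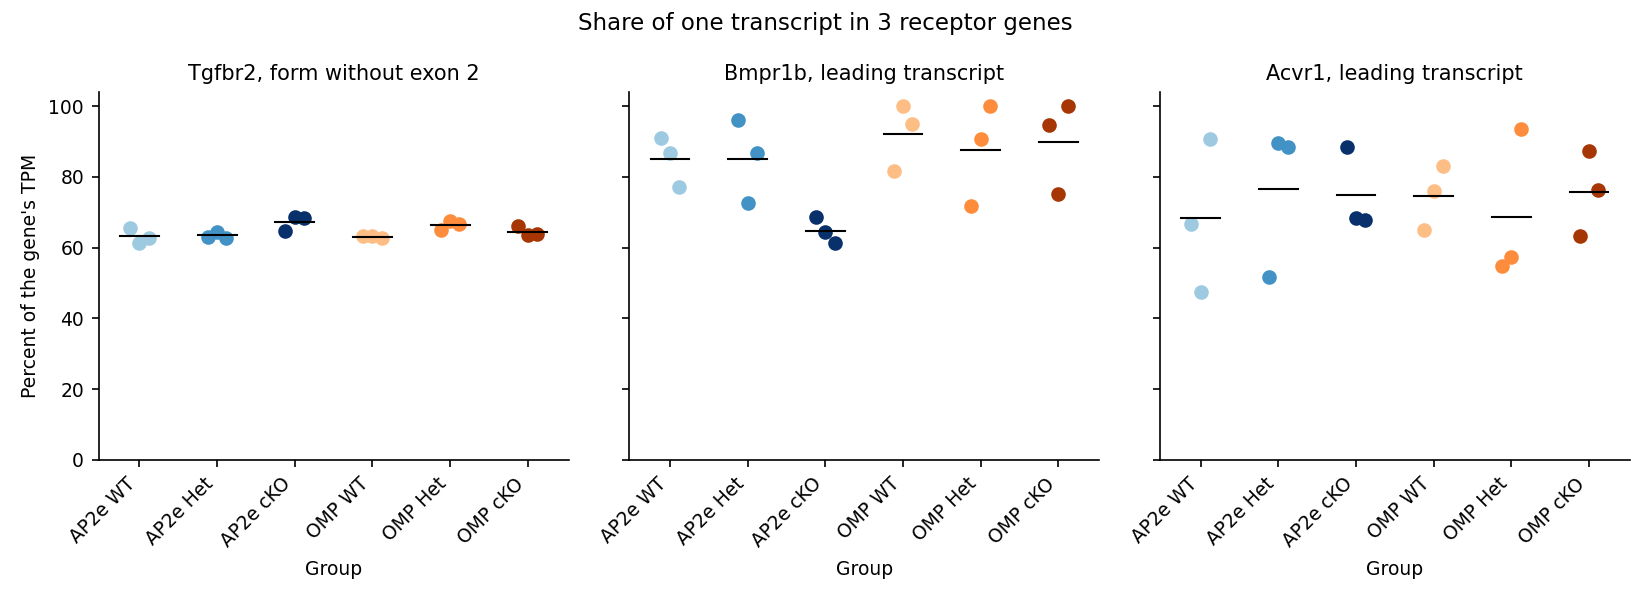
Percent of the gene's TPM held by the Tgfbr2 transcript without exon 2 and by the leading transcripts of Bmpr1b and Acvr1, in each library (points) with group means (bars). The 3 AP2e cKO libraries lie at 61.2% to 68.6% for Bmpr1b, below the 6 AP2e controls at 72.6% to 96.0%, while Acvr1 spans 47.4% to 93.6%.

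Receptor levels were also compared by how the libraries were named. With the 6 groups in the model, the log2 difference of the library named after the mouse line from those named with a letter was 0.17 for Bmpr2 (SE 0.05, edgeR adjusted p = 0.0501). Tgfbr1 had 0.13 (adjusted p = 0.122) and Acvr2a 0.14 (adjusted p = 0.147), and 9 of the 10 members had a positive estimate, with Acvr1 at -0.09. By this term 12.1% of all genes were called, and 0 of the 10 members. On the TPM scale, with no test, the 6 line-named libraries had 31.0 ± 6.52 for Bmpr1a, 18.9 ± 3.27 for Bmpr2 and 2.02 ± 0.679 for Acvr2b, against 20.6 ± 2.69, 12.8 ± 1.36 and 1.25 ± 0.351 in the 12 letter-named ones. The TPM means given above pool both kinds of library. By CPM, each member was highest in the line-named library in 2 to 5 of the 6 groups. With the letter-named libraries alone, edgeR called 0 members in AP2e cKO or OMP cKO, where 0.0107% and 0% of all genes were called. In these fits 1575 and 895 genes had an unadjusted p under 0.05, and 0 members had.

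**Figure D5:**
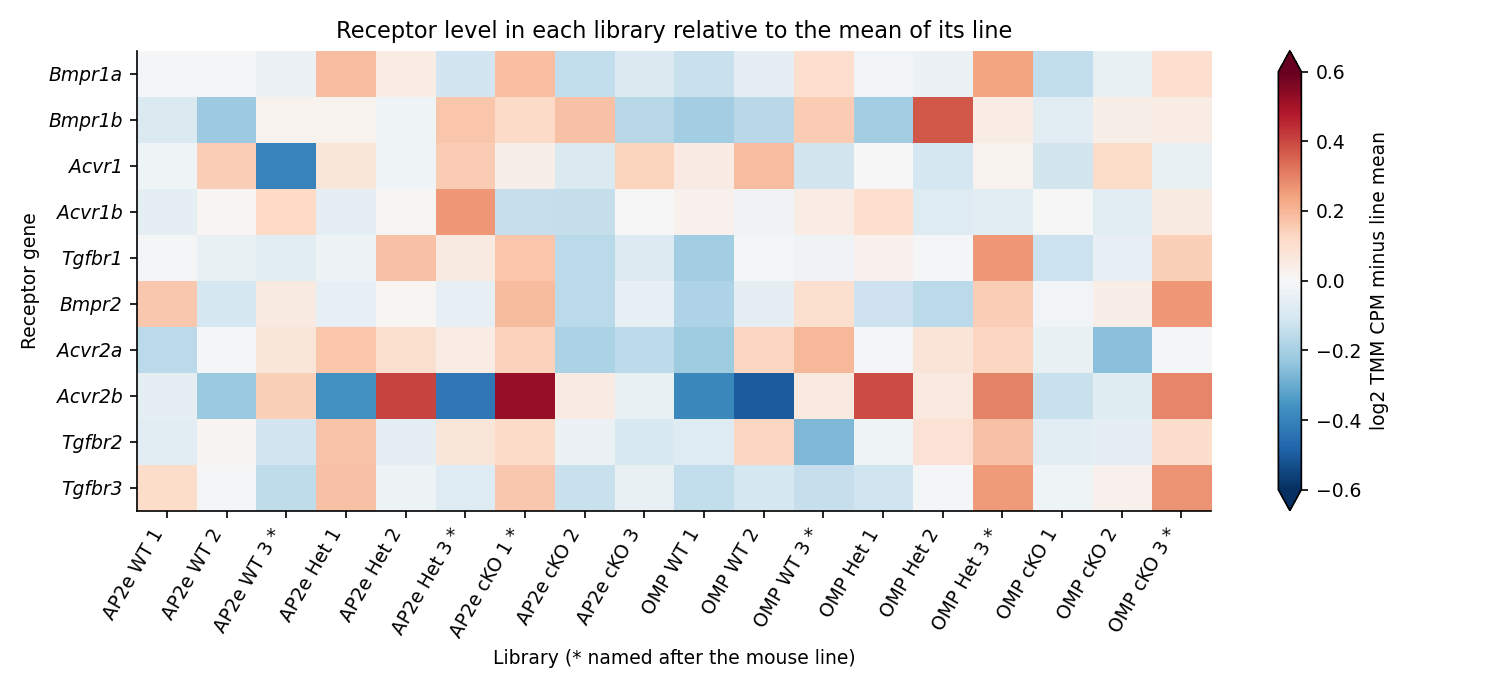
log2 CPM of each receptor in each library minus the mean of its line (colour scale, TMM-normalized), with libraries named after the mouse line marked by an asterisk. Of the 180 values, 162 lie within 0.25 of the line mean, and the range is from -0.50 (Acvr2b, OMP WT 2) to 0.52 (Acvr2b, AP2e cKO 1).

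Across the 18 libraries, centred within each line, the members split into those that varied together and those that did not. Bmpr1a went with Tgfbr1 (Pearson r = 0.738), Tgfbr3 (0.721), Acvr2a (0.644) and Bmpr2 (0.621). Bmpr1b and Acvr1b reached at most r = 0.305 with any other member. Acvr2b, with a mean of 4.76 CPM, fell under the cut of 5 CPM set for this comparison. These values share library, depth and the naming just described, and are given as description. The genes most like each member among 12873 with at least 5 CPM were Ppm1e (r = 0.916) for Bmpr1a, Tjp1 (0.924) for Bmpr2, Fam210a (0.914) for Tgfbr1 and Slc30a4 (0.91) for Acvr2a. Next came Fgfr2 (0.885) for Tgfbr2, Abca9 (0.881) for Tgfbr3, Cyb561 (0.863) for Acvr1b, Snai2 (0.816) for Acvr1 and Zfp672 (0.727) for Bmpr1b. With the 6 fibroblast markers the highest values were for Tgfbr2 (r = 0.668), Tgfbr3 (0.665) and Acvr1 (0.664). Tgfbr2 had r = -0.659 with the vomeronasal neuron markers. Values of like size occurred with other marker lists. Bmpr2 had r = -0.669 with sustentacular cell markers, Acvr1 had 0.659 with those of bone and cartilage, and Acvr2a had -0.614 with endothelial markers. Summed fibroblast markers were at 32572 to 40457 CPM in AP2e cKO against 17189 to 39344 CPM in AP2e WT and 30424 to 32050 CPM in AP2e Het. In OMP they were at 20035 to 31906 CPM in cKO, 16442 to 27709 CPM in WT and 26233 to 38082 CPM in Het. The vomeronasal neuron markers summed to 1340 to 1564 CPM in AP2e cKO, above all AP2e controls (WT 1255 to 1319, Het 949 to 1282), and to 1146 to 1224 CPM in OMP cKO, within the range of its controls (WT 1094 to 1354, Het 1045 to 1154). These markers include Omp, the gene into which Cre was inserted in the OMPCre line. Omp had a mean of 397 CPM in OMP WT, 237 CPM in OMP Het and 259 CPM in OMP cKO. A sum without Omp was not made, so the sums of the lines are not comparable. In AP2e cKO the immune markers, like the neuron markers, lay above all controls. They were at 184 to 191 CPM against 144 to 163 CPM in WT and 153 to 172 CPM in Het. The sums of the other marker lists overlapped their AP2e controls, and no marker was called by edgeR in either line. Among single genes, 5.05% did not overlap between AP2e cKO and its controls. The part of these cell types in the receptor levels was not tested.

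The partners of these receptors gave the same count of calls. Of 13 other receptors and co-receptors, 9 were tested in AP2e cKO and 10 in OMP cKO, all 19 regulators of the receptors were tested in each (Pmepa1 was listed under an older symbol too), and all 8 SMAD genes were tested. In each of the 3 lists 0 genes were called as higher and 0 as lower in either line, by edgeR over all genes. In AP2e cKO the lowest p in its list belonged to Eng, or endoglin, an endothelial co-receptor (log2 fold change 0.18, SE 0.08, adjusted p = 0.45). In OMP cKO it belonged to Rgmb, a BMP co-receptor (0.16, SE 0.07, adjusted p = 1). Among regulators it was Pmepa1 in both lines, a target of TGF-beta that restrains its SMAD2 and SMAD3 branch. Pmepa1 had a log2 fold change of 0.35 (SE 0.10, edgeR adjusted p = 0.317) in AP2e cKO and 0.25 (SE 0.08, adjusted p = 1) in OMP cKO, and 0.30 (SE 0.07, adjusted p = 0.116) averaged over both. Among SMADs it was Smad9, which carries BMP signals, in AP2e cKO (0.20, adjusted p = 0.701) and Smad4 in OMP cKO, with the value given above.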

How the data were processed

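RNA of whole VNOs (RIN over 8 per the study's methods) was made into stranded polyA+ libraries and sequenced as single reads of 75 bases. The authors quantified reads with Salmon 0.14.0 on mouse transcripts (mm10, GRCm38). The deposited values are an estimated count per transcript, not normalized and not always whole, and a TPM per transcript, scaled by the authors to transcript length and library. The methods name a coding-sequence index, but the deposited lengths include UTRs, since 35.5% are multiples of 3. The submitters' processing notes also list DESeq2 1.22.2.

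Both values were summed per gene with GENCODE vM21, which matched 116072 of 116248 transcripts. The 176 others held at most 0.0324% of a library. Counts were rounded and tested with edgeR 4.0.16 (R 4.3.3; quasi-likelihood, TMM, filterByExpr, Benjamini-Hochberg over all genes). CPM are TMM-normalized, and intervals come from the model. Order tests used log2(TPM + 0.01) and likeness used log2(CPM + 0.5). All p-values are two-sided, and exact tests enumerated 84 splits of 3 against 6 (smallest p 0.012) or 20 of 3 against 3. Libraries are labelled biological replicates. Fits were tested on simulated data. Alternatives included DESeq2 1.42.0 and each library left out. Restriction to letter-named libraries was chosen after seeing the data. Depth gives a floor of 3 counts, or 0.0692 CPM in the smallest library, for counting error only. All 10 members were named, with, by rule, the genes most like each member and the lowest p of each pathway list in each knockout comparison. The table of likeness holds 2 genes per member and the text the first. Members and lists were chosen with earlier results of these data known. Levels, sequences and figures came from Python 3.11.15 with pandas 2.3.3, numpy 2.4.6 and, for plots, matplotlib 3.10.9.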

Additional observations from a re-analysis of the deposited data

Results flagged for a closer look

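Bmpr1b was at 18.8 CPM in the AP2e library whose title names a heterozygote and whose genotype label names a knockout, with all 19 libraries normalized together. This single library entered no comparison, and its value was above those of the 6 AP2e controls, at 13.4 to 17.3 CPM, and above the 3 AP2e cKO libraries, at 13.8 to 17.6 CPM. The other 9 receptors were at or under the highest AP2e control in that library. How many of all genes were highest in this library was not counted, so the value has no background to be set against. With groups of 3, no test for single outlying libraries was made, and no receptor's knockout effect differed between the lines by the test of that difference.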

How the results depend on the processing

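In all 142 gene fits of the comparisons between groups, alternatives and left-out libraries included, 0 of 1420 member tests were called, and the smallest adjusted p of a member was 0.42 (Acvr2a, mean of both lines, library name series as a covariate). Over all genes the calls varied more. DESeq2 called 309 genes in AP2e cKO and 43 in OMP cKO, against 7 and 0 by edgeR, 258 against 40 for the mean of both lines, 860 against 149 over the 6 groups, 50 against 1 for the difference between the lines, 168 against 4 in AP2e Het and 159 against 8 in OMP Het. Other alternatives, single left-out libraries aside, called 0 to 24 genes in AP2e cKO, 0 to 15 in OMP cKO and 18 to 72 for the mean. All 9 neighbour pairs of the order kept passing with CPM per kilobase and with any control left out, and 7 passed in the 6 WT libraries alone.

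Log2 fold changes near 0 changed sign, in no case from a main estimate over 0.05 in size, and the cause was not tested. In AP2e cKO, counts from length-scaled TPM gave 0.02 for Bmpr1a, -0.06 for Acvr1, 0.02 for Tgfbr1, 0.00 for Bmpr2, 0.04 for Tgfbr2 and 0.26 for Tgfbr3. WT controls alone gave 0.00 for Bmpr1a, 0.01 for Tgfbr1, 0.04 for Tgfbr2 and 0.00 for Tgfbr3. Het controls alone gave -0.04 for Acvr1 and 0.03 for Bmpr2, letter-named libraries alone -0.02 for Acvr1, and the library with conflicting labels added to the Hets 0.01 for Tgfbr3. In OMP cKO, length-scaled TPM gave 0.03 for Bmpr1b, 0.02 for Acvr1b and 0.03 for Tgfbr1, and WT controls alone 0.07 for Bmpr1b, 0.07 for Tgfbr1 and 0.06 for Tgfbr2. Het controls alone gave 0.02 for Acvr1, 0.01 for Acvr1b and -0.21 for Acvr2b, and letter-named libraries alone 0.02 for Bmpr1b and -0.03 for Acvr2b. For the mean of both lines, length-scaled TPM gave -0.04 for Acvr1, 0.03 for Tgfbr1 and 0.02 for Tgfbr2.

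With 1 library left out, AP2e cKO estimates ran from -0.13 to 0.04 for Bmpr1a, -0.04 to 0.09 for Acvr1, -0.14 to 0.03 for Tgfbr1, -0.11 to 0.07 for Bmpr2, -0.08 to 0.04 for Tgfbr2 and -0.10 to 0.05 for Tgfbr3. In OMP cKO they ran from -0.12 to 0.00 for Bmpr1a, -0.05 to 0.07 for Bmpr1b, -0.09 to 0.02 for Acvr1, -0.03 to 0.03 for Acvr1b, -0.10 to 0.03 for Tgfbr1, -0.12 to 0.11 for Acvr2b and -0.07 to 0.02 for Tgfbr2. For the mean they ran from -0.00 to 0.08 for Bmpr1b, -0.03 to 0.04 for Acvr1, -0.08 to 0.01 for Tgfbr1 and -0.04 to 0.01 for Tgfbr2.

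The labels give groups the same replicate numbers, but these belong to different animals. Deviations of same-numbered libraries correlated at a mean of -0.0776 in AP2e (2 of 9 pairs over 0.1) and 0.207 in OMP (7 of 9), where 8 of 9 libraries correlated best with their own number. In every OMP group the library numbered 3 was the one named after the mouse line, so pairing and naming cannot be told apart there. Libraries of the same naming correlated at a mean of 0.145 in OMP, and those of different naming at -0.179. Pairing was to be taken only with every pair over 0.1, and the lowest were -0.284 in AP2e and -0.00119 in OMP. With the replicate number as a block, 0 members were called in AP2e cKO, OMP cKO or any other comparison, and all-gene calls were 2 in AP2e cKO, 0 in OMP cKO and 44 for the mean. Acvr2b had the lowest counts of the members and the widest intervals, and a link between these was not tested.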

Other observations

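In the library with conflicting labels, Acvr2b was at 5.21 CPM and Tgfbr2 at 195 CPM, inside the AP2e control ranges of 3.33 to 5.99 and 174 to 211 CPM.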
